A study of Mus musculus with 192 samples.

Results

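Tnf, the gene for the cytokine tumour necrosis factor, was followed across every ligand combination of the series. It was taken by its symbol, as 1 row of the 23481 genes in the deposited count table, and it was 1 of the 4720 genes that passed the filter on low counts. The cells were dendritic cells grown with GM-CSF from bone marrow of female C57BL/6J mice aged 6 to 8 weeks. Each well held 100000 cells, and stimulation lasted 6 h in every group. The unstimulated group is named Ctrl, and the 7 ligands, in the spelling of the labels, are PAM, LPS (lipopolysaccharide), HMW, Zymosan (a depleted preparation), SeV, cGAMP (a cyclic dinucleotide) and CpGB. Alone, in all 21 pairs and in all 35 triplets they gave 63 stimulated groups, and each of the 64 groups had 3 libraries. Ligand doses are not given in the sources used here, so the ligands are compared at the single dose each was used at. The labels do not say that the 3 libraries of a group came from separate cultures or animals, so p-values measure only the spread between these samples, which may be technical.

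Tumour necrosis factor is made as a membrane protein, mainly by macrophages and dendritic cells, and the protease Adam17 sheds it from the surface. It binds the receptors encoded by Tnfrsf1a and Tnfrsf1b and activates NF-kB, whose targets include both inflammatory genes and inhibitors of the pathway itself. Its transcription responds to Toll-like receptors, C-type lectin receptors and cytosolic nucleic acid sensors, and its mRNA is short-lived because proteins such as tristetraprolin (Zfp36) bind AU-rich elements in it and promote its decay.

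On the mouse build GRCm38 (mm10), Tnf lies on the minus strand of chromosome 17 at 35199367-35202007 (2641 bases in RefSeq). Its main GENCODE transcript has 4 exons and 1639 exonic bases. The lymphotoxin genes flank it, Lta at a distance of 1158 bases and Ltb at 3062 bases. The 250 bases before the start site are shown because transcription of Tnf begins there by annotation. Counts per gene symbol do not tell which transcript or start site they came from. The sequence is from RefSeq on GRCm38.p6 (chr17:35202008-35202257, minus strand, written 5′ to 3′ toward the start site), and capitals mark a CRE-like match and a TATA box:

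Tnf promoter: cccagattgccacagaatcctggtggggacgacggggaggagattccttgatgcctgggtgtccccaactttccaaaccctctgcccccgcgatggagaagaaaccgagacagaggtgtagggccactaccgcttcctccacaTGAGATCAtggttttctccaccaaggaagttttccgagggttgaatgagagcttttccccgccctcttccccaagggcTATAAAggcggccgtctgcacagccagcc

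Motifs were searched on both strands, and all 32851 RefSeq promoters of the same length were searched in the same way. The CRE-like motif TGANNTCA matched at -107 from the start site and is present in 11.9% of promoters. TATAAA matched at -29 and is present in 12.4%. The Ets core GGAA had 7 matches, and 93.4% of promoters hold it. The AP-1 motif TGANTCA (6.75% of promoters), the NF-kB consensus (3.9%) and the core of the interferon-stimulated response element (2.98%) had no match in this window, which says only that these letters are not in it. A match is a description of letters, and the RNA counts do not test the promoter.

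Tnf was deeply covered. Its count was 46 to 7068 UMIs (unique molecular identifiers, each marking 1 cDNA molecule) per library, with a median of 1432.5, and it made up 0.0744% to 2.38% of all UMIs. Library totals ran from 46564 to 610234 UMIs. The Ctrl libraries were among the smaller ones (61823 to 89530 UMIs), with Tnf counts of 46, 91 and 83 UMIs, so Ctrl carries the largest counting error. Levels are given in CPM, the count relative to the library total after TMM scaling. The 8 dendritic cell markers were all in the table and 6 were detected in most libraries, while Flt3 and Zbtb46 were near 0, and their summed level ranged from 4053 to 5605 CPM over the groups. Macrophage markers (5 of 6 in the table) summed to 2337 CPM in Ctrl, the highest group, and to 633 CPM in the lowest, most of it Csf1r. Neutrophil markers (3 of 6 detected in most libraries) summed to 349 to 727 CPM, plasmacytoid dendritic cell markers (2 of 3) to 148 to 758 CPM, mast cell markers to at most 25.7 CPM, B cell markers to at most 6.12 CPM and T or NK cell markers to at most 2.15 CPM, and the last 3 lists had no marker detected in most libraries.

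In the data, 6 libraries stood apart from their own group over the 500 most variable genes other than Tnf. Each had a correlation with both group mates that was more than 0.1 below the mates' own, and was nearer by more than 0.1 to 2 libraries of another group. The median correlation between group mates over all libraries was 0.75. All 6 belonged to triplets, and 4 of them, all replicate 1, were also over 2-fold from their mates in Tnf. The library labelled HMW + cGAMP + CpGB replicate 1 had 7788 CPM of Tnf against 19579 and 20319.5 CPM in its mates, and its 2 nearest libraries outside its group were of SeV + CpGB. The library labelled HMW + SeV + CpGB replicate 1 had 20184 CPM against 8392 and 9206 CPM, and its 2 nearest were of HMW + cGAMP + CpGB. The libraries labelled HMW + SeV + cGAMP replicate 1 (9705 CPM against 3938 and 3974 CPM) and Zymosan + SeV + cGAMP replicate 1 (4020.5 CPM against 8290.1 and 9641 CPM) each had their 2 nearest libraries in the other's group. Set against the mean profiles of the groups instead, the closest other groups of the last 3 were cGAMP + CpGB (r = 0.786), Zymosan + cGAMP (0.859) and HMW + cGAMP (0.895). The means of other groups keep any library that stands apart in them, so this measure cannot decide which group is nearest. The remaining 2, LPS + SeV + CpGB replicate 3 (4714 CPM) and PAM + HMW + SeV replicate 3 (11333 CPM), differed 1.28-fold and 1.14-fold in Tnf from their mates. No library was reassigned or removed from the main results, and calls and counts of calls that use these 6 groups are also given without those libraries, an alternative chosen after seeing the data. Among the other 186 libraries the farthest from its mates in Tnf was Ctrl replicate 2, by 1.42-fold.

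Tnf rose in 62 of the 63 stimulated groups against Ctrl, with HMW alone the exception. A call needed both an adjusted p under 0.05 and a log2 fold change of 1 or more in size. It was made for 6 of 7 single ligands, 21 of 21 pairs and 35 of 35 triplets, and the same 62 of 63 were called without the 6 libraries. Over all genes tested, 13.7% of gene and pair combinations and 15.7% of gene and triplet combinations were called higher. Every comparison of this kind uses the same 3 Ctrl libraries. In bulk RNA, more cells making a transcript and more transcript per cell cannot be told apart.

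**Figure D1:**
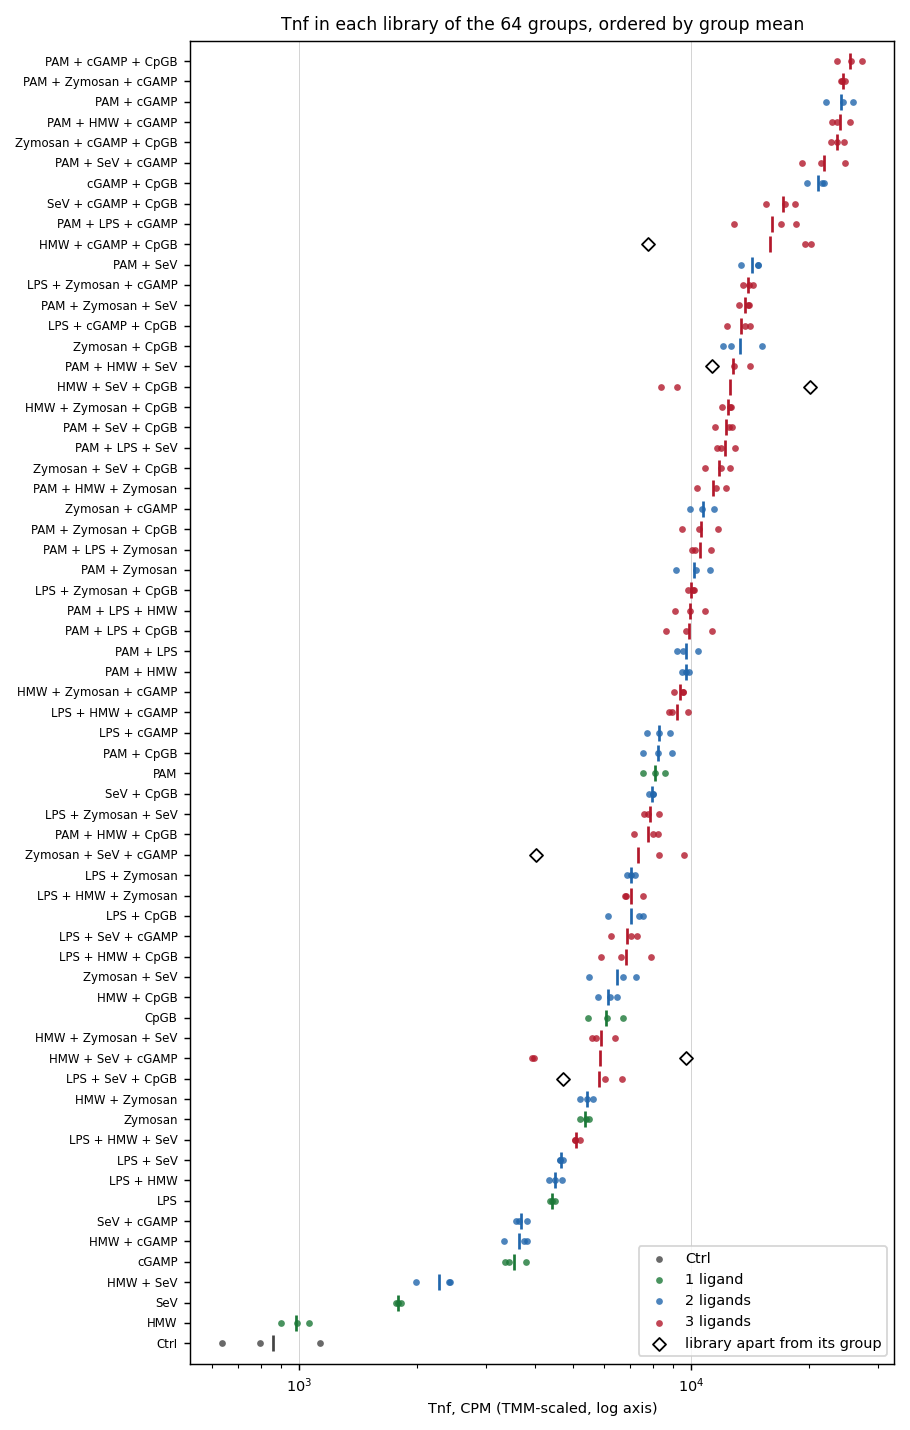
Tnf level of each library (CPM, log axis) in the 64 groups ordered by group mean (ticks), with libraries that stand apart from their group as open diamonds. Group means run from 856 CPM in Ctrl to 25581 CPM in PAM + cGAMP + CpGB, and the libraries of HMW alone lie within the range of Ctrl.

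The 3 Ctrl libraries had 637, 1135 and 797 CPM. PAM gave the highest single response, with 7565, 8114 and 8617 CPM. On the log2 scale Tnf was 3.24 above Ctrl (SE 0.19, adjusted p = 2.34e-39). All adjusted p-values here come from the quasi-likelihood test of edgeR with Benjamini-Hochberg adjustment over all tested genes. PAM called 8.01% of all tested genes higher and 5.89% lower. CpGB followed with 5473, 6699 and 6109.8 CPM (log2 fold change 2.83, SE 0.19, adjusted p = 1.44e-32 in edgeR; 10.8% of genes higher, 6.27% lower). The libraries of PAM and CpGB did not overlap, and neither did those of CpGB and LPS.

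Zymosan gave 5494, 5420.0 and 5206 CPM (2.65, SE 0.19, edgeR adjusted p = 1.91e-28), although it called only 4.43% of genes higher and 1.82% lower. LPS called the most genes, 14.6% higher and 9.6% lower, and came after PAM, CpGB and Zymosan for Tnf, with 4437, 4373 and 4506 CPM (2.37, SE 0.19, edgeR adjusted p = 3.03e-25). The order of the ligands by Tnf was thus not their order by the number of genes called.

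cGAMP gave 3796, 3447 and 3363 CPM (2.04, SE 0.20, edgeR adjusted p = 1.86e-19; 11.7% of genes higher, 5.91% lower). SeV gave 1787, 1824 and 1768 CPM (1.06, SE 0.20, edgeR adjusted p = 5.90e-06; 10.5% of genes higher, 5.13% lower), above all Ctrl libraries but just past the fold threshold, which it missed in DESeq2 (0.94), under other scalings (0.88 and 0.94) and after thinning to equal totals (0.82). HMW gave 989.5, 1063 and 902 CPM (0.20, SE 0.21, edgeR adjusted p = 0.865), inside the Ctrl range, and called 0.953% of genes higher and 0.0212% lower.

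The level rose with the number of ligands as a median, and more in some combinations than in others. The median group mean was 4438 CPM for singles, 7961 CPM for pairs and 11420.5 CPM for triplets. The highest pair, PAM + cGAMP (24197 CPM), was close to the highest triplet, PAM + cGAMP + CpGB (25581 CPM), and a triplet without it, LPS + HMW + SeV, had 5104 CPM. The spread within most stimulated groups was small: the median coefficient of variation was 6.49% for singles, 6.58% for pairs and 7.29% for triplets. In Ctrl it was 29.7%.

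The 7 groups above 20000 CPM all held cGAMP, although cGAMP alone was only the fifth of the single ligands. They were PAM + cGAMP + CpGB, PAM + Zymosan + cGAMP (24423 CPM), PAM + cGAMP, PAM + HMW + cGAMP (24045 CPM), Zymosan + cGAMP + CpGB (23701 CPM), PAM + SeV + cGAMP (21855 CPM) and cGAMP + CpGB (21106 CPM). Among the 16 groups with the highest means, 12 held cGAMP, 9 PAM, 7 CpGB, 5 Zymosan, 5 SeV, 3 LPS and 3 HMW, of 22 groups for each ligand counted without Ctrl. Among the 16 lowest, 8 held HMW, 8 SeV, 5 LPS, 4 cGAMP, 3 Zymosan, 1 CpGB and 0 PAM. Without the libraries that stand apart from their groups the counts were the same, except 7 with SeV and 4 with LPS among the lowest. These counts describe the order, and no test was made on them.

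Neighbouring groups in this order could seldom be separated. Of the 63 steps between neighbours, 56 had overlapping libraries and 2 passed an adjusted p of 0.05. The groups were ordered by these same Tnf means, which makes the steps small, and other genes are not ordered by their own levels, so nothing is read from the 9.38% of steps called over all genes tested. The 2 were cGAMP above HMW + SeV (log2 difference 0.62, edgeR adjusted p = 0.0152) and SeV above HMW (0.86, edgeR adjusted p = 5.18e-05). Without the 6 libraries 55 steps overlapped, and again 2 passed.

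Each ligand was next compared in every setting it was added to. A context is Ctrl, a single ligand or a pair, and each ligand was added to 22 contexts. No fold threshold was used here. Over all 7 ligands Tnf was higher with the ligand in 85 contrasts and lower in 2. Contrasts that share a group are not independent, and 18 use a group that holds a library standing apart. Without those libraries the counts were 96 higher and 4 lower, against 4.63% and 2.63% over all genes tested.

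**Figure D2:**
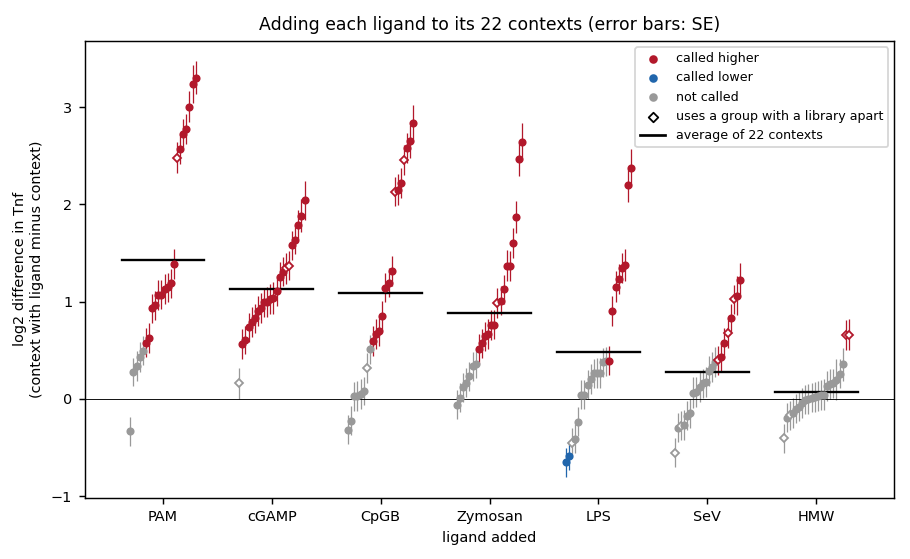
Log2 difference in Tnf when a ligand is added to each of its 22 contexts (points, bars SE), coloured by call, with the average over contexts as a black line. PAM has the highest average (1.43) and cGAMP is called higher in 21 of 22 contexts, while the contexts of LPS run from -0.65 to 2.37.

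PAM had the largest average, a log2 difference of 1.43 (SE 0.033) or 2.69-fold, and raised Tnf in 17 contexts. It lowered it in 0 by edgeR (1 at an unadjusted p under 0.05) and 0 by DESeq2 (0 unadjusted). Over all genes PAM called 4.21% of combinations higher and 2.6% lower. Its response was small where CpGB was present: 1 of those 6 contexts was called, SeV + CpGB (0.63), and the 6 ranged from -0.33 to 0.63, with 4 raised and 1 lowered without the libraries that stand apart. Where SeV was present, all 6 were called, from 0.63 to 3.00. Without the libraries that stand apart PAM raised 20 contexts and lowered 1, Zymosan + CpGB (-0.33, edgeR adjusted p = 0.0258), where Tnf went from 12106, 12639 and 15244 CPM to 10525, 11744 and 9528 CPM.

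With no fold threshold, cGAMP raised Tnf most regularly, in 21 of 22 contexts and in 22 without the libraries that stand apart. It raised fewer contexts than PAM when a log2 difference of at least 1 was also required. Its average was 1.13 (SE 0.033), and the contexts ran from 0.16 for Zymosan + SeV, which became 0.45 without the library labelled Zymosan + SeV + cGAMP replicate 1, to 2.04 for Ctrl. It called 7.81% of combinations higher and 4.4% lower over all genes, and lowered Tnf in 0 contexts by edgeR and by DESeq2 (0 unadjusted in both). In the 11 contexts that hold PAM or CpGB it added from 0.60 (PAM + SeV) to 1.79 (CpGB), among them 0.73 on PAM + LPS, 0.83 on Zymosan + CpGB, 1.58 on PAM and 1.63 on PAM + CpGB. Where SeV was present it added 0.16 to 1.34, or 0.45 to 1.10 without the libraries that stand apart.

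CpGB averaged 1.09 (SE 0.033), with 14 contexts raised (16 without the libraries that stand apart) and 0 lowered by edgeR (1 unadjusted) and by DESeq2 (1 unadjusted). Its background was 3.82% higher and 2.31% lower. In the 6 contexts that held PAM it raised 0 by edgeR, with and without the libraries that stand apart, and 0 by DESeq2 (0 unadjusted in each), and the differences lay between -0.32 and 0.08. On PAM alone the log2 difference was 0.02 (SE 0.15, edgeR adjusted p = 0.984). The same ligand added 2.58 to cGAMP, 2.15 to SeV and 1.31 to Zymosan. PAM + CpGB (7538, 8937 and 8232 CPM) overlapped PAM, while it lay wholly above CpGB (0.43, not called in edgeR, but called without the libraries that stand apart at 0.42, edgeR adjusted p = 0.00178).

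Zymosan averaged 0.89 (SE 0.033) and raised 15 contexts (17 without the libraries that stand apart). It lowered 0 by edgeR and 0 by DESeq2 (0 unadjusted in both), on a background of 4.01% higher and 1.95% lower. Of the 6 contexts with PAM 0 were called by edgeR (2 unadjusted) and 0 by DESeq2 (1 unadjusted), with a range of -0.06 to 0.36, and 2 were called without the libraries that stand apart. Contexts with LPS ranged from 0.12 to 0.76, of which 5 were called.

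LPS raised Tnf in some contexts and lowered it in others. It averaged 0.48 (SE 0.033), raised 8 contexts and lowered 2, with 8.73% of combinations higher and 5.74% lower over all genes. It lowered cGAMP + CpGB from 19798, 21942 and 21578 CPM to 12372, 14183 and 13752 CPM, a log2 difference of -0.65 (SE 0.15, edgeR adjusted p = 0.00212). It lowered PAM + cGAMP from 22166, 24499 and 25926 CPM to 12919, 16991 and 18559.5 CPM, a difference of -0.58 (SE 0.15, edgeR adjusted p = 0.0103). The libraries with and without LPS did not overlap in either, and none of these 4 groups holds a library that stands apart. DESeq2 called 1 of the lowered contexts, and the count was 0 without replicate 3, 1 without replicate 2 and 4 without replicate 1.

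The 8 contexts that LPS raised were the 8 with the lowest Tnf means: Ctrl (2.37), HMW (2.20), SeV (1.38), HMW + cGAMP (1.34), cGAMP (1.23), HMW + SeV (1.15), SeV + cGAMP (0.90) and Zymosan (0.39, edgeR adjusted p = 0.038). On cGAMP alone LPS moved Tnf from 3536 to 8283 CPM, whereas on cGAMP together with PAM or CpGB it went down. Without the libraries that stand apart 12 contexts were raised and 3 lowered, the third being Zymosan + CpGB (-0.43).

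SeV averaged 0.28 (SE 0.033) and raised 8 contexts (9 without the libraries that stand apart), with 4.09% of combinations higher and 1.49% lower over all genes. It lowered 0 by edgeR (2 unadjusted) and 0 by DESeq2 (1 unadjusted). In the 6 contexts with PAM it raised 4, the highest of them PAM alone (0.83). In the 6 contexts with LPS it raised 0 by edgeR (1 unadjusted) and 0 by DESeq2 (0 unadjusted), with a range of -0.27 to 0.33. The call on HMW + cGAMP (0.68, edgeR adjusted p = 0.0101) rested on the library labelled HMW + SeV + cGAMP replicate 1 and was 0.12 without it.

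HMW averaged 0.07 (SE 0.033, edgeR adjusted p = 0.177) and raised 2 contexts, SeV + CpGB (0.66, edgeR adjusted p = 0.00873) and SeV + cGAMP (0.66, edgeR adjusted p = 0.0208). Both triplets hold a library that stands apart, and without these the differences were 0.15 and 0.12 and HMW raised 0 contexts (2 unadjusted). It lowered 0 by edgeR (1 unadjusted) and by DESeq2 (1 unadjusted). Over all genes HMW called 0.656% of combinations higher and 0.0828% lower, so few genes moved with it over the pooled contexts. The averages of the other 6 ligands all passed in edgeR (largest adjusted p = 1.52e-13, SeV), where 21.1% of gene and ligand combinations passed upward and 19.2% downward. With the libraries that stand apart left out, the averages were 1.43 for PAM, 1.14 for cGAMP, 1.10 for CpGB, 0.89 for Zymosan, 0.50 for LPS, 0.25 for SeV and 0.05 for HMW.

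The pairs were then set against their 2 single ligands. All 21 pair means were above the higher single, but 6 pairs passed the test of being above both, against 0.876% of gene and pair combinations over all genes tested. PAM + cGAMP was 2.99-fold above PAM (log2 difference 1.58, SE 0.15, edgeR adjusted p = 4.50e-18) and cGAMP + CpGB was 3.46-fold above CpGB (1.79, SE 0.15, edgeR adjusted p = 1.79e-21). Zymosan + CpGB was 2.18-fold, Zymosan + cGAMP 2.00-fold, LPS + cGAMP 1.87-fold and PAM + SeV 1.77-fold above the higher single, with edgeR adjusted p-values up to 1.21e-05. Of these 6 pairs 4 held cGAMP. LPS + Zymosan was called above Zymosan and above LPS when each was tested alone (edgeR adjusted p = 0.038 and 0.00118). The test of being above both adjusts its own p over genes, and there this pair had 0.232.

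The libraries of each of the 6 pairs were all above those of both singles. Zymosan + cGAMP had 10702, 9979.7 and 11494 CPM, LPS + cGAMP 7737, 8835 and 8277 CPM, and PAM + SeV 13408, 14866 and 14818 CPM. SeV, which gave the lowest called response alone, thus formed with PAM a pair that no PAM library reached. With cGAMP it did not: SeV + cGAMP had 3829, 3643 and 3586 CPM, overlapping cGAMP (log2 difference 0.06).

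No pair was below both singles by edgeR or DESeq2 (0 unadjusted in both; 0.0323% over all genes). Leaving out the libraries that stand apart put 9 pairs above both, against 0.922% over all genes, the added ones being PAM + Zymosan, LPS + Zymosan and SeV + CpGB. None of these pairs or their single ligands holds such a library. That fit tests 5032 genes and has its own estimate of the spread, and the cause of the added calls was not tested.

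**Figure D3:**
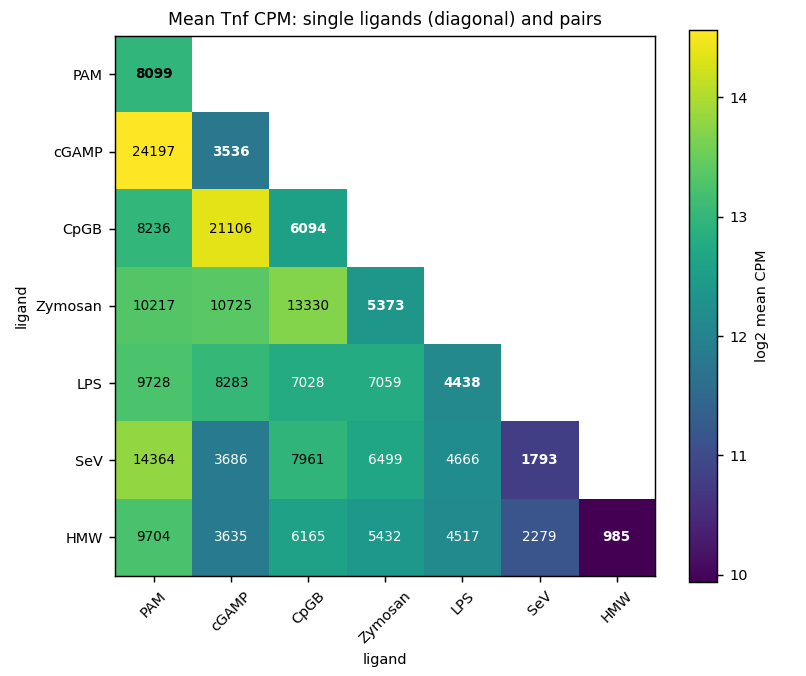
Mean Tnf level (CPM) of the 21 pairs, with the single ligands on the diagonal. The PAM + cGAMP (24197 CPM) and cGAMP + CpGB (21106 CPM) cells are the highest, while PAM + CpGB (8236 CPM) is at the level of PAM alone (8099 CPM).

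On the log2 scale, where no interaction means that fold changes multiply, pairs fell short of the product or did not differ from it. The interaction was negative in 10 of 21 pairs and positive in 0 by edgeR and by DESeq2 (0 unadjusted in both), with 19 of 21 estimates below 0. All 21 use the same 3 Ctrl libraries and share single ligands, so their signs are not independent. Over all genes 3.5% of combinations were negative and 1.08% positive. The most negative were PAM + CpGB (-2.81, SE 0.25, edgeR adjusted p = 1.27e-21), PAM + Zymosan (-2.31), LPS + CpGB (-2.17), PAM + LPS (-2.11), LPS + Zymosan (-1.98) and Zymosan + CpGB (-1.52). Those 6 are all the pairs among PAM, LPS, Zymosan and CpGB, the 4 ligands with the highest single responses.

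The 2 highest pairs were near a product of folds. The interaction was -0.25 (SE 0.25, edgeR adjusted p = 0.691) for cGAMP + CpGB and -0.46 (SE 0.25, edgeR adjusted p = 0.456) for PAM + cGAMP. PAM + SeV was similar, at -0.24 (SE 0.25). The other called pairs were LPS + cGAMP (-1.14), Zymosan + cGAMP (-1.04), LPS + SeV (-0.99) and, lying between these, SeV + cGAMP, with edgeR adjusted p-values of 0.00674 or less. Leaving out the libraries that stand apart, 13 were negative and 0 positive by edgeR (0 unadjusted), against 3.74% and 0.914% over all genes. The 3 added were Zymosan + SeV (-0.83), SeV + CpGB (-0.73) and PAM + cGAMP (-0.52, edgeR adjusted p = 0.0489).

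On the linear scale the same pairs split both ways. Here the increase of a pair over Ctrl was set against the sum of the 2 single increases, each with the SE from the 3 libraries of its groups, as a description. For 8 pairs the excess was above 0 by more than 2 SE, and for 7 it was below 0 by more than 2 SE. PAM + cGAMP exceeded the sum by 13419 CPM (SE 1154, 2.25 times the summed level) and cGAMP + CpGB by 12333 CPM (SE 777, 2.41 times). PAM + SeV exceeded it by 5328 CPM (SE 586). Smaller excesses were found for Zymosan + CpGB (2719 CPM), Zymosan + cGAMP (2672 CPM), PAM + HMW (1477 CPM), LPS + cGAMP (1165 CPM) and SeV + CpGB (930.1 CPM).

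PAM + CpGB had the largest shortfall, -5101 CPM (SE 634), which left it at 0.618 of the summed level. The others were LPS + CpGB (-2648 CPM), PAM + Zymosan (-2399 CPM), PAM + LPS (-1952 CPM), LPS + Zymosan (-1897 CPM), SeV + cGAMP (-787 CPM) and LPS + SeV (-709 CPM). PAM with cGAMP and PAM with CpGB thus lay at opposite ends on this scale, and so did CpGB with cGAMP and CpGB with PAM. The remaining 6 pairs, 5 of which held HMW, were within 2 SE of the sum. Scaled by library size alone, the 15 kept their signs. Each excess among them was then smaller. It was 10407 CPM for cGAMP + CpGB, which was then above PAM + cGAMP (9762 CPM). The others were PAM + SeV (3367 CPM), Zymosan + CpGB (1680.1 CPM), Zymosan + cGAMP (1543 CPM), PAM + HMW (1027 CPM), LPS + cGAMP (614 CPM) and SeV + CpGB (577 CPM). Each shortfall was larger, most of all for PAM + LPS (-3579.8 CPM) and LPS + Zymosan (-2994 CPM).

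**Figure D4:**
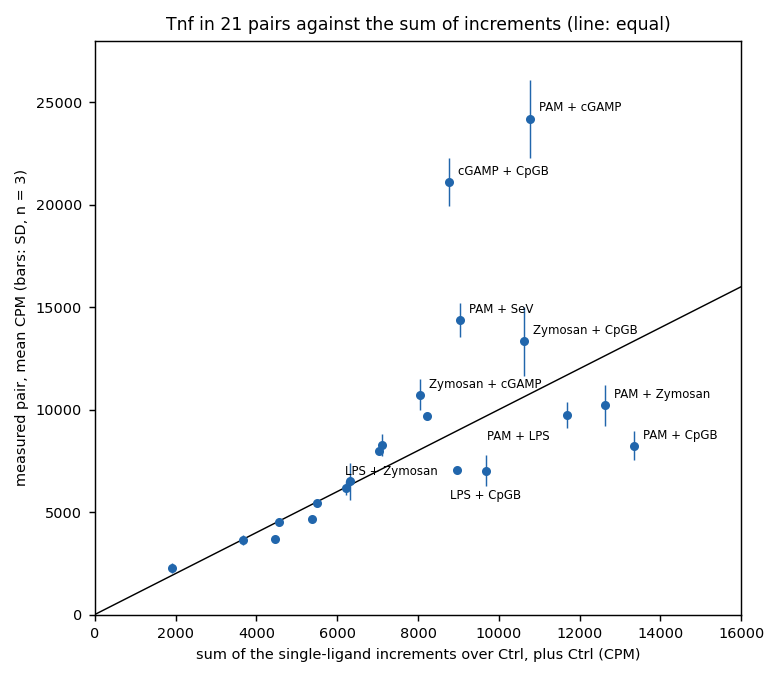
Measured Tnf level of each pair (CPM, mean with SD over 3 libraries) against the level that the summed increases of its single ligands give, with a line where both are equal. PAM + cGAMP and cGAMP + CpGB lie 13419 and 12333 CPM above the line, and PAM + CpGB lies farthest below it.

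Most triplet means did not go beyond the highest of their 3 pairs. Of the 35 triplet means, 22 lay between the lowest and highest of their pairs, 13 above the highest and 0 below the lowest, with the same counts without the libraries that stand apart. All libraries of LPS + Zymosan + cGAMP (13622, 14387 and 14130 CPM) were above those of its highest pair, Zymosan + cGAMP. The log2 difference was 0.39 (edgeR adjusted p = 0.121), or 0.38 without the libraries that stand apart (edgeR adjusted p = 0.00205). The test of being above all 3 pairs adjusts its own p over genes, and there this triplet had 0.122 without those libraries. The test of being above all 3 pairs passed for 2 triplets, HMW + SeV + CpGB and HMW + SeV + cGAMP (each 0.66 above the highest pair), against 0.0369% of combinations over all genes. Both hold a library that stands apart and both calls were lost without it, which left 0 by edgeR (3 unadjusted), against 0.0386% over all genes. DESeq2 called 1. No triplet was below all 3 pairs by edgeR or DESeq2 (0 unadjusted in both; 0.00121% over all genes).

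**Figure D5:**
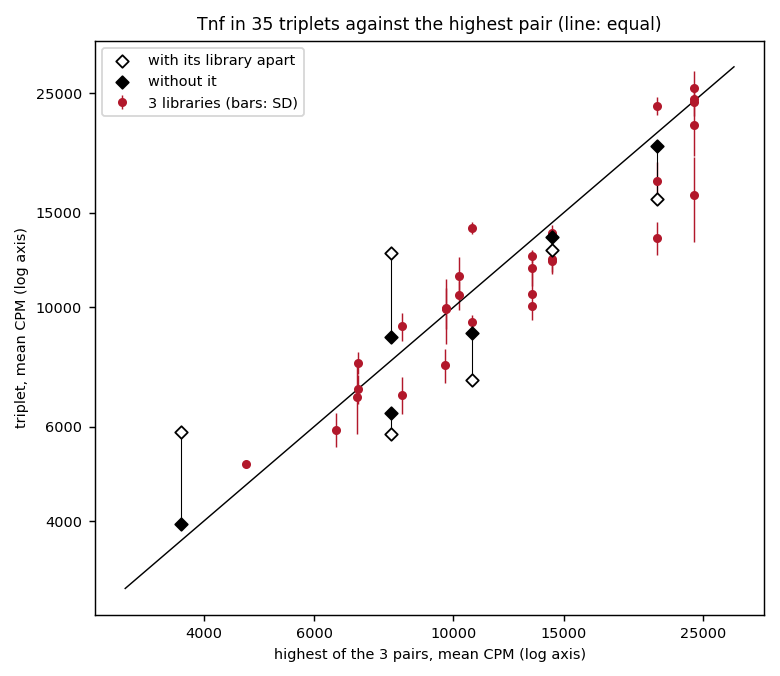
Tnf level of each triplet against its highest pair (CPM, log axes), with a line where both are equal; open diamonds are groups with a library that stands apart and filled ones the same groups without it. Most triplets lie near the line, and PAM + LPS + cGAMP and LPS + cGAMP + CpGB lie below it.

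Most triplets of PAM + cGAMP stayed close to the pair. With CpGB added the libraries had 23599.8, 27438 and 25706 CPM, with Zymosan 24208, 24329.7 and 24732 CPM, with HMW 23594, 23015 and 25527 CPM and with SeV 19276, 24716 and 21574 CPM. All 4 overlapped the pair (22166 to 25926 CPM), and their log2 differences from it ran from -0.15 to 0.08. Only LPS gave a group whose libraries were all below those of the pair. Among the triplets of cGAMP + CpGB, Zymosan gave 22808, 24626 and 23669 CPM, SeV 15566, 18501 and 17446 CPM, and HMW, without the library labelled replicate 1, 20319.5 and 19579 CPM. None of these 3 passed the test against the pair. The Zymosan libraries were all above those of the pair and the SeV libraries all below.

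The highest pair was also the closest of 6 simple predictions of the triplet. The root mean square error in log2 over the 35 triplets was 0.31 for the highest pair and 0.36 for a linear sum with pairwise terms. Without the libraries that stand apart these errors were 0.24 and 0.31. With all libraries the error was 0.65 for the mean of the pairs, 0.71 for log2 pairwise terms, 0.95 for the highest single and 2.76 for the product of the single fold changes, which was too high for all 35. These errors describe the fit over triplets that share groups, and no test between them was made.

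The three-way interaction, which asks whether a triplet departs from what its singles and pairs give on the log2 scale, was positive in 4 triplets. They were PAM + LPS + CpGB (2.17, SE 0.33, edgeR adjusted p = 4.07e-08), PAM + LPS + Zymosan (1.76, SE 0.33), PAM + Zymosan + CpGB (1.54, SE 0.33) and LPS + Zymosan + CpGB (1.36, SE 0.33, edgeR adjusted p = 0.00715). These are the 4 triplets that can be made from PAM, LPS, Zymosan and CpGB, whose 6 pairs had the most negative interactions. The three-way term subtracts the interactions of its pairs, so negative ones raise it by construction, and this overlap is not a separate result. The levels of the 4 triplets were alike, from 9913 to 10599 CPM, and none was above its highest pair in the test. Over all genes 0.803% of combinations were positive and 0.13% negative.

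No three-way interaction was negative by edgeR or DESeq2 (0 unadjusted in both), and 27 of 35 estimates were above 0. All 35 use the same Ctrl libraries and share groups, so these signs are not independent either. Without the libraries that stand apart 7 were positive and 0 negative by edgeR (1 unadjusted), against 0.9% and 0.133% over all genes. The 3 added were LPS + Zymosan + cGAMP (1.22), LPS + Zymosan + SeV (0.91) and LPS + SeV + cGAMP (0.77).

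The genes whose log2 group means over the 64 groups were most like Tnf, among the 4500 that averaged 20 CPM or more, began with Ccl3, Slc3a2, Il1a, Ptgs2 and Malt1. Ccl3, a chemokine that attracts monocytes and other leukocytes, was first with a Pearson r of 0.90 (Spearman rho 0.86). Slc3a2, an amino acid transporter subunit, had 0.85 (0.73), Il1a, the cytokine interleukin 1 alpha, 0.85 (0.80), Ptgs2, the inducible cyclooxygenase, 0.83 (0.76), and Malt1, a signalling protease upstream of NF-kB, 0.83 (0.70). Of all 4500 genes 10 were above 0.8, and the median was 0.01. All values share the same libraries and the same Ctrl, so they are given as a description without a p. Ccl3, Slc3a2 and Il1a remained the first 3 when the libraries that stand apart were left out.

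The following genes were chosen for comparison. Ccl4 had an r of 0.80, Cxcl2 0.78, Il6 0.76, Il1b 0.69 and Il12b 0.49, while the interferon-inducible genes Ifit1 and Cxcl10 had 0.44 and 0.35. Among groups with the same number of ligands the values differed from these. Over singles, pairs and triplets in turn, Ccl3 had 0.86, 0.83 and 0.81, Slc3a2 0.94, 0.84 and 0.62, Il1a 0.90, 0.80 and 0.64, Ptgs2 0.88, 0.76 and 0.64, and Malt1 0.84, 0.73 and 0.62. Of the genes chosen for comparison, Cxcl2 had 0.83, 0.79 and 0.69, Il6 0.73, 0.68 and 0.61, Il1b 0.77, 0.64 and 0.45, and Il12b 0.57, 0.41 and 0.25, all lowest over triplets. Ccl4 (0.42, 0.64 and 0.77), Ifit1 (-0.13, 0.04 and 0.28) and Cxcl10 (-0.10, -0.01 and 0.20) were highest over triplets. The likeness of Ccl3 was not uniform: Tnf was higher with Zymosan (5373 CPM) than with LPS (4438 CPM), and Ccl3 was lower with Zymosan (1333 CPM) than with LPS (3372 CPM). In PAM + cGAMP and cGAMP + CpGB Ccl3 reached 15042 and 15163 CPM, from 583 CPM in Ctrl. The summed macrophage markers ran against Tnf over the 64 groups (r = -0.76, a description), and their part in the Tnf values was not tested. Most of that sum is Csf1r, the receptor for the growth factor M-CSF, at 2001 CPM in Ctrl and 793 CPM as a mean over all libraries. C1qa (102 and 39.9 CPM) was also higher in Ctrl, whereas Fcgr1 (70.7 and 287 CPM) and Mertk (0 and 6.76 CPM) were lower there, and Adgre1 had no row.

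A list of 32 genes of the tumour necrosis factor pathway was read beside it, of which 27 were tested; Ltb, Rhbdf1, Tia1 and Tradd fell under the filter, and Otulin had no row. Called higher and lower were 8 and 1 with PAM (8.01% and 5.89% of all genes tested), 11 and 2 with LPS (14.6% and 9.6%) and 10 and 1 with CpGB (10.8% and 6.27%). With cGAMP they were 3 and 0 (11.7% and 5.91%), with Zymosan 2 and 0 (4.43% and 1.82%) and with SeV 0 and 1 (10.5% and 5.13%). DESeq2 called 8 higher with LPS, 9 with CpGB and 2 with cGAMP, and 1 lower with Zymosan, with the other counts as in edgeR. With HMW the count was 0 and 0 by edgeR and by DESeq2 (2 and 3 members at an unadjusted p under 0.05). The median log2 fold change of the 27 was 0.55 for PAM, 0.72 for LPS, 0.91 for CpGB, 0.71 for cGAMP, 0.56 for SeV, 0.31 for Zymosan and 0.22 for HMW, where the median of all genes tested lay between -0.09 and 0.03. The list was put together with earlier results of these data known, so its counts are a description.

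Of the ligand's neighbours and the machinery of its release, Lta, which encodes lymphotoxin alpha, was at 13.9, 0 and 0 CPM in Ctrl and at 22.3, 61 and 26.8 CPM with LPS, which passed in edgeR (adjusted p = 0.0165). It also passed with CpGB (58.2, 35.7 and 23.1 CPM, edgeR adjusted p = 0.0298), and DESeq2 called it with neither (adjusted p = 0.0583 and 0.0792). No fold is given because Ctrl held too few UMIs of it. Adam17, the shedding protease, rose with PAM (1.25), CpGB (1.11) and LPS (1.08), from 222, 237 and 202 CPM in Ctrl. Rhbdf2, which encodes iRhom2 and brings Adam17 to the cell surface, rose with LPS (1.10). In DESeq2 both changes with LPS fell under the fold threshold (0.93 for Adam17 and 0.96 for Rhbdf2).

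The receptors differed between ligands. Tnfrsf1b, the receptor found mainly on immune and endothelial cells, was at 748, 748 and 720.1 CPM in Ctrl. It rose with PAM (2093, 2262 and 2106 CPM, log2 fold change 1.55), CpGB (2290.2, 2216 and 2379 CPM, 1.64) and LPS (2009.8, 1939.7 and 2027 CPM, 1.43). With cGAMP it had 614, 608 and 528 CPM (-0.34, edgeR adjusted p = 0.0789), all below Ctrl, and with SeV 688, 751 and 718 CPM (-0.03), overlapping it. cGAMP and SeV had Tnfrsf1a, the widely expressed receptor, at log2 fold changes of 0.96 and 0.94, under the fold threshold, and no ligand passed it there.

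Among regulators of the mRNA, Zc3h12a, the RNase regnase-1, rose with PAM (2.33), CpGB (1.93) and LPS (1.55) and had -0.16 with cGAMP. Zfp36l2, a relative of tristetraprolin, fell with LPS (-2.43), CpGB (-2.06), PAM (-1.93) and SeV (-1.30) and had -0.08 with cGAMP. Zfp36 itself passed the fold threshold with no ligand (0.91 with CpGB, 0.90 with SeV and cGAMP, 0.19 with PAM). Mapkapk2, the kinase MK2 that restrains tristetraprolin, rose with cGAMP (1.60), PAM (1.50), CpGB (1.38) and LPS (1.34). Of these regulators, Mapkapk2 was the one that cGAMP raised.

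Of the 6 tested genes that restrain NF-kB or respond to it, PAM, LPS and CpGB each raised 4 (8.01%, 14.6% and 10.8% of all genes tested), and cGAMP and Zymosan each raised 2 (11.7% and 4.43%). SeV and HMW raised 0 by edgeR (4 and 0 at an unadjusted p under 0.05) and by DESeq2 (4 and 1 unadjusted), and cGAMP raised 1 in DESeq2. Tnfaip3, which encodes the deubiquitinase A20, rose with PAM (1.87), LPS (1.44), cGAMP (1.29), CpGB (1.20) and Zymosan (1.17), from 208, 262 and 221 CPM in Ctrl. Nfkbia, the inhibitor of NF-kB, rose with PAM (1.80), CpGB (1.63), LPS (1.37) and cGAMP (1.02, or 0.89 and not called in DESeq2). Tnip1, a partner of A20, rose with PAM (2.08), CpGB (1.71), Zymosan (1.41) and LPS (1.18) and had 0.07 with cGAMP. Cyld, another deubiquitinase, and Litaf were called with no ligand. Tnfaip3, Nfkbia, Cyld and Litaf were picked from the list after their values were seen.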

How the data were processed

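RNA from mouse bone marrow-derived dendritic cells was sequenced in 64 groups. Per the labels' protocols, the authors made cDNA by template switching, and Nextera XT libraries were run on a NextSeq. The authors deposited whole-number UMI counts per gene symbol with no normalization, and every column was matched to a sample by its name. The submitters' processing notes name BWA 0.7.15 and mm10; the annotation, the counting rule and the collapsing of UMIs are not given in the sources used here. All libraries were fitted together in edgeR 4.0.16 (R 4.3.3) with TMM factors, filterByExpr by group (4720 genes, 95.7% of UMIs) and 1 coefficient per group (128 residual degrees of freedom, biological coefficient of variation 10.3%). Quasi-likelihood tests were adjusted by Benjamini-Hochberg over genes within each contrast. For above or below all parts, the larger one-sided p was used. An exact permutation of 3 libraries against 3 cannot go below a two-sided p of 0.1, so it was not used for calls. Alternatives were DESeq2 1.42.0, other scalings, no filter, thinning, a replicate block and leaving out libraries. The fit was tested on simulated counts. Tnf and the gene lists were chosen with earlier results of these data known. Named genes were the 5 most like Tnf over group means, 8 comparison inflammatory genes and, in the pathway list, Lta, Ltb, both receptors, Adam17, Rhbdf2, Zfp36 and the largest called member for each ligand. Tnfaip3, Nfkbia, Cyld and Litaf were added after their values were seen. The values of 1 macrophage marker are not reported here.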

Additional observations from a re-analysis of the deposited data

Results flagged for a closer look

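Adding LPS passed the test upward in 8 contexts and downward in 2, with every library on the same side in each. Added to cGAMP + CpGB it gave a log2 difference of -0.65, and added to PAM + cGAMP one of -0.58. In both cases all 3 libraries with LPS were below all 3 without it. In 12 other contexts all 3 libraries with LPS were above all 3 without it. The 8 of these that passed had 2.37 on Ctrl, 2.20 on HMW, 1.38 on SeV, 1.34 on HMW + cGAMP, 1.23 on cGAMP, 1.15 on HMW + SeV, 0.90 on SeV + cGAMP and 0.39 on Zymosan. The 4 that did not pass had 0.39 on Zymosan + cGAMP, 0.38 on HMW + Zymosan, 0.27 on Zymosan + SeV and 0.26 on PAM, of which all but Zymosan + SeV passed without the libraries that stand apart from their groups (edgeR adjusted p up to 0.0161). Each of the 10 differences that passed did so on its own, but the difference between the contexts that went up and those that went down was not tested as such. Libraries also lay wholly below their context, without passing the test, for LPS on SeV + CpGB (-0.45, or -0.32 without the library of the triplet that stands apart), Zymosan + CpGB (-0.41) and PAM + SeV (-0.24), for SeV on Zymosan + cGAMP (-0.55, or -0.27 without the library that stands apart), cGAMP + CpGB (-0.30) and LPS + cGAMP (-0.27), for PAM on Zymosan + CpGB (-0.33), for CpGB on PAM + HMW (-0.32) and PAM + SeV (-0.23), and for HMW on Zymosan + cGAMP (-0.19). Without the libraries that stand apart, 2 of these passed in edgeR, LPS on Zymosan + CpGB (-0.43, adjusted p = 0.00044) and PAM on Zymosan + CpGB (-0.33, adjusted p = 0.0258). None of the groups in the 10 comparisons that passed holds a library that stands apart from its group. The level of the context also differed: the 2 lowered contexts were at 21106 and 24197 CPM and the 8 raised ones between 856 and 5373 CPM. Among those that did not pass the order was mixed, with LPS libraries all above at 8099 CPM (PAM) and 10725 CPM (Zymosan + cGAMP) and all below at 7961 CPM (SeV + CpGB). The part of that level in the sign was not tested.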

How the results depend on the processing

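Of 898 alternative values of 74 results, 842 were judged the same and 0 reversed. A contrast was the same if it kept its side of the threshold, and its direction where either value was called. Counts had to stay within 1.5 times, and correlations and prediction errors within a fixed margin. Only contrasts could be judged reversed. The call of SeV alone was lost with DESeq2 (0.94), relative log expression factors (0.94), library size alone (0.88), thinning to equal totals (0.82) and a fit of SeV and Ctrl alone (0.99); leaving out 1 replicate gave 0.95 (without Ctrl replicate 1, not called) to 1.38. The relative log expression and library size scalings shifted the median fold change of all genes by -0.13 and -0.29 on the log2 scale. The average of HMW passed with no filter (0.12) and without Ctrl replicate 2, and was 0.038 to 0.095 over the left-out replicates. Contexts lowered by LPS numbered 1 with DESeq2, 4 with no filter, 0 with a fold threshold and 0 to 4 over the left-out replicates. HMW raised 1 context with DESeq2 or thinning, 0 without the libraries that stand apart (an alternative chosen after seeing the data) or with a fold threshold, and 0 to 2 over the left-out replicates. SeV raised 3 with a fold threshold and 5 (without replicate 3) to 7 over the left-out replicates; it lowered 1 with no filter or adjustment over the family, and 0 to 1 (without replicate 2). PAM lowered 1 without the libraries that stand apart and 0 to 1 (without replicate 1). With a fold threshold Zymosan raised 8, cGAMP raised 12 and 3 pairs were above both singles. Triplets above all pairs numbered 1 with DESeq2 or thinning, 0 without the libraries that stand apart, over the family or with a fold threshold, and 0 (without replicate 1) to 2. Without the libraries that stand apart 7 three-way terms were positive and the highest-pair error was 0.24. Replicate numbers share only a number (mean correlation of deviations 0.008 for the same number, -0.004 for different ones). With them as a replicate block, 62 groups were called higher than Ctrl, 10 pair interactions negative, 6 pairs above both singles and 4 three-way terms positive. Depth limits Ctrl most, with 46 to 91 UMIs of Tnf in a library.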
